A study of Mus musculus and Homo sapiens with 12 samples.

Results

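Messenger RNA of 52 genes of DNA replication and S phase was followed in blood progenitors that had lost most messenger RNA of the RNA helicase DDX21. The genes were taken from a list of replication and S phase genes and matched by symbol, and all 52 were found among 55487 mouse genes and 78932 human genes. All 52 also passed the filter on low counts in each species. They were described in 4 role groups: 17 genes of origin licensing and the replicative helicase, 19 of DNA synthesis, 6 of nucleotide supply and 10 of S phase control and chromatin. The study comprised 12 RNA sequencing libraries in 2 experiments, with 3 libraries in each of 4 groups. In the mouse, live Lineage- Kit+ (LK) progenitors were sorted from E13.5 fetal liver. Mouse controls (WT) had the genotype Ddx21f/f, with both alleles floxed and no Cre, and knockouts (cKO) had the genotype Vav-Cre; Ddx21f/f, in which the Vav promoter drives Cre in blood cells. No group with Cre and unfloxed alleles was analysed here. In the human experiment, cells differentiated from H1, a single embryonic stem cell line, received mCherry-marked lentivirus that carried either the hairpin shNC as control or the hairpin shDDX21, directed at DDX21. Live CD34+ CD45+ CD43+ cells that carried the hairpin were sorted 2 days after transduction, so all 6 human libraries come from transduced cells. Nothing in the labels tells whether libraries within a group are separate embryos or cultures, and p-values therefore measure only the spread between these libraries.

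Before S phase, the origin recognition complex, CDC6 and CDT1 load the ring of MCM2 to MCM7 onto DNA, and geminin (GMNN) blocks CDT1 once replication has begun. CDC45 and the GINS complex turn the ring into a working helicase, primase and the polymerases copy the strands, and the clamp PCNA, loaded by replication factor C, holds the polymerases on DNA. Many of these genes are known targets of E2F transcription factors and are transcribed in cycling cells, and fetal liver progenitors are known for rapid division.

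Library totals lay between 21116079 and 23898130 counts in the mouse and between 15289510 and 19798608 in the human experiment, and no member had fewer than 49 counts in any library. Levels are given as CPM, counts scaled to a common library size. Ddx21 itself was at 19.7% of its control level in the mouse (1424 ± 12.5 against 280.2 ± 3.62 CPM, SD, n = 3) and DDX21 at 14.5% in the human cells (470.1 ± 6.05 against 68.3 ± 1.14 CPM). Counts are per whole gene, and the labels do not say which exons are floxed. DDX21 protein was not measured here, so depletion below refers to its messenger. The labelled progenitor markers were present (Kit at 362.3 CPM in WT, CD34 at 248.6 CPM and PTPRC at 94.9 CPM in shNC), and the gate genes Ly6g and Cd3e had no more than 3 counts in any mouse library. The progenitor markers themselves moved with the groups. In the mouse 2 of 8 fell and 3 rose, Itga2b (1.04), Cd34 (0.69) and Ptprc (0.51 on the log2 scale), and in the human cells 3 of 7 fell, GATA2 (-1.12), MYB (-0.61) and PTPRC (-0.45), and 4 rose. Other cell types moved with the groups. The summed CPM of granulocyte and monocyte genes went from 779.2 to 1043 in WT to 416.4 to 667 in cKO, with 10 of 14 tested genes lower and 1 higher, and from 915.9 to 931.3 in shNC to 691.4 to 702.1 in shDDX21, with 9 of 11 lower and 1 higher. The human erythroid sum went from 952.6 to 988.7 in shNC to 1208 to 1249 in shDDX21 (9 of 12 genes higher, 1 lower). The mouse erythroid sum overlapped between the groups (1237 to 1484 in WT, 1077 to 1310 in cKO), while 6 of 15 tested genes were higher and 5 lower. The hepatocyte sum was 5.2 to 6.42 CPM in WT and 37.5 to 40.6 in cKO, with all 6 tested genes higher, among them Alb at 12.1 CPM in cKO, and the endothelial sum was 59.6 to 67.1 in WT and 111.8 to 119.3 in cKO, with 5 of 7 genes higher. The megakaryocyte sum was 88.9 to 100 in WT and 135.1 to 173.8 in cKO, with 4 of 8 genes higher and none lower. In the human cells the endothelial sum went from 1813 to 1858 in shNC to 1646 to 1665 in shDDX21, with 3 of 8 genes lower and 4 higher. The human megakaryocyte sum went from 702.6 to 733.9 down to 656.5 to 669.6 (2 of 6 genes lower, 3 higher). The human pluripotent sum went from 229.7 to 238.7 up to 278.1 to 288.5 (1 of 2 genes higher). Only 2 of the 6 listed pluripotent genes were matched by symbol in the human data, so this sum says nothing of the others. The part of these cell types in the results below was not tested.

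The replication genes were lower in the DDX21-depleted cells of both species. In the mouse, 49 of the 52 fell, none rose, and 3 did not pass the test (POLA1, FEN1 and UNG). The test throughout was edgeR's quasi-likelihood test over all genes, with a threshold of 0.05 on the p adjusted by Benjamini and Hochberg. Of all 14918 mouse genes tested, 15.8% were called lower and 20.7% higher. The median member stood at 75% of its WT level, a log2 fold change of -0.41, where the median of all genes was 0.00057. In the human cells 51 of the 52 fell and none rose, and RPA3 did not pass the test, beside 27.4% of all 20188 tested genes called lower and 25.3% called higher. The median human member stood at 61.3% of its control level (log2 fold change -0.70, all genes 0.0052), and 12 members were at or below 50%. In 48 members all 3 cKO libraries lay below all 3 WT libraries, which held for 21.4% of all mouse genes, and in 51 members all 3 shDDX21 libraries lay below all 3 shNC libraries, against 29.5% of all human genes. From bulk libraries, fewer cells in S phase and less of these messengers in each cell cannot be told apart.

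**Figure D1:**
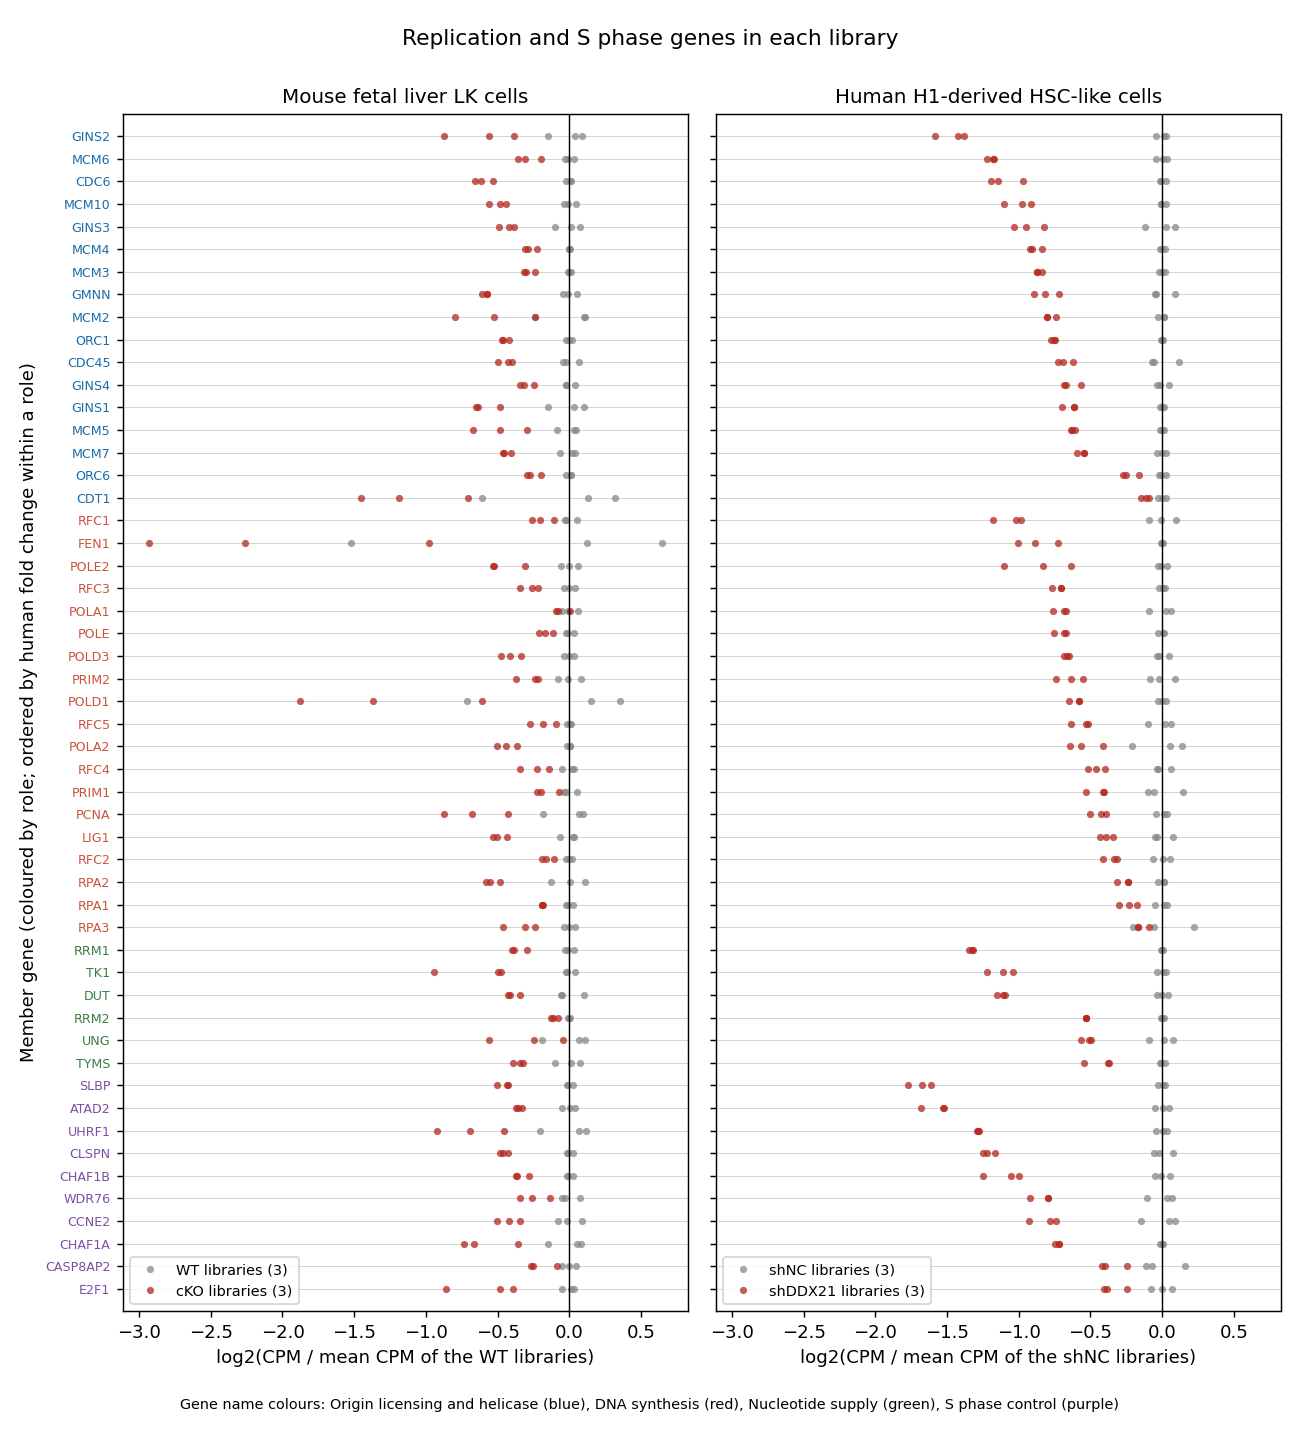
Each point is 1 library: the x axis is the log2 of its CPM over the mean of the 3 control libraries, and the rows are the 52 genes, with gene names coloured by role, in mouse (left) and human (right). The red depleted libraries lie left of the grey controls without overlap in 48 mouse and 51 human rows, and the mouse rows for CDT1, POLD1 and FEN1 are spread widely within each group.

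In every depleted library nearly all members lay below the control mean. The median member stood at -0.38, -0.36 and -0.41 on the log2 scale relative to the WT mean in cKO libraries 1, 2 and 3, and 52, 51 and 52 of the 52 members lay below that mean. In shDDX21 libraries 1, 2 and 3 the medians were -0.71, -0.70 and -0.70, with all 52 members below the shNC mean each time. The members called lower in both species numbered 48, where 10.4% of the 10313 genes tested in both were called lower in both. POLA1, FEN1 and UNG passed the test in the human cells and not in the mouse, and RPA3 passed it in the mouse and not in the human cells.

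Promoter windows from RefSeq (mouse build GRCm38.p6, 250 bases before to 50 after a transcription start) were searched for letters of the E2F site, since these genes moved together and many are known E2F targets. The table held 48 windows for 42 of the members and none for the other 10 (MCM4, GINS1, GINS2, GINS4, RFC2, POLE, PRIM2, ATAD2, GMNN and CCNE2). The E2F letters searched, on both strands, were TTTCCCGC, TTTGGCGC, TTTCGCGC and TTTGCCGC. They occurred in 17 of the 48 member windows (35.4%) and in 744 of all 32851 windows (2.26%). Member windows were also richer in G and C, with a median of 61.3% against 52.7%. CCAAT stood in 56.2% of member windows and 37.4% of all windows, and TTTGAA, the letters of the cell cycle homology region, in 10.4% and 17.9%. A window with E2F letters was found for 8 of 12 licensing genes in the table, 6 of 16 synthesis genes, 0 of 6 nucleotide genes and 3 of 8 control genes. The 17 members with a match had a median mouse log2 fold change of -0.45, ranging from -1.19 (POLD1) to -0.05 (POLA1). The 25 without had a median of -0.36, ranging from -1.83 (FEN1) to -0.11 (RRM2). Members that fell far thus occur with and without the letters. Of those that did not pass the test, POLA1 has a match, and FEN1 and UNG have none. The stretches below show the range. Mcm6 holds 3 matches, of which the first pair overlaps, Cdc6 and Uhrf1 are among the members with large and precise mouse or human falls, and Pola1 had the smallest mouse change. Each is 90 bases, 5′ to 3′ on the strand of the gene, with the matches in capitals.
Mcm6 (chr1:128359736-128359825, minus strand, bases -120 to -31 from the start): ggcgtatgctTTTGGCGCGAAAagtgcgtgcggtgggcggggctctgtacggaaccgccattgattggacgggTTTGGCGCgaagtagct
Cdc6 (chr11:98907972-98908061, plus strand, bases -179 to -90): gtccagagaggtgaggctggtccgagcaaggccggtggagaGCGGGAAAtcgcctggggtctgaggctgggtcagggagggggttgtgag
Uhrf1 (chr17:56304087-56304176, plus strand, bases -226 to -137): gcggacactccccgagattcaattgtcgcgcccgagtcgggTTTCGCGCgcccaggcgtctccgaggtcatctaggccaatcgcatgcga
Pola1 (chrX:93632245-93632334, minus strand, bases -179 to -90): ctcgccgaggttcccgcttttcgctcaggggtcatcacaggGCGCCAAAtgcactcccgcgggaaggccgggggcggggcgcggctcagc
A match is a run of letters, and no binding was measured here. Only these exact letters within the windows were searched, so a member without a match may still hold an E2F site.

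All 17 genes of origin licensing and the helicase fell in both species, with median log2 fold changes of -0.45 in the mouse and -0.78 in the human cells. Cdc6, the ATPase that loads the MCM ring with the origin recognition complex, had 251.4, 257.6 and 256.2 CPM in the WT libraries and 161.9, 176.4 and 166.9 in cKO. Human CDC6 had 58.9, 57.5 and 57.3 CPM in shNC and 26.2, 25.3 and 29.5 in shDDX21. The groups were apart in each species, at 66% of control in the mouse (log2 fold change -0.60 ± 0.041, SE; adjusted p = 5.12e-05) and 46.6% in the human cells (-1.10 ± 0.055; adjusted p = 8.31e-29). Geminin, the inhibitor of CDT1, fell with it. Gmnn had 134.6, 131.2 and 140.5 CPM in WT and 89, 91 and 90.9 in cKO (-0.59 ± 0.041; adjusted p = 5.28e-05), and human GMNN was at 57% of control (-0.81 ± 0.053). Neither species showed any overlap for geminin.

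CDT1, the licensing factor that geminin binds, was 1 of 2 members that fell further in the mouse by the test of the difference given below (the other was RPA2). Mouse Cdt1 had 134.5, 118.3 and 70.9 CPM in WT and 66.1, 39.5 and 47.3 in cKO, so that the third WT library lay close to the first cKO library. It fell to 47.3% (-1.08 ± 0.27; adjusted p = 0.0171), the largest fold of the group. The mouse libraries differed in how their counts depended on GC content (below): with a GC offset the mouse change was -0.80 and with the GC slope of each library as a covariate -0.73. Without any one of WT 1, WT 2 or cKO 3 the adjusted p was 0.0584, 0.0623 and 0.0711. Human CDT1 had 80.2, 77.2 and 78.8 CPM in shNC and 70.9, 73.9 and 72.9 in shDDX21. That is 92.2% of control, the smallest human change of the group (-0.12 ± 0.039; adjusted p = 0.00782), and it did not pass with upper-quartile scaling (-0.05, adjusted p = 0.29) or without shDDX21 library 1 (adjusted p = 0.0572).

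All 6 subunits of the MCM2 to MCM7 ring fell in both species. Their mouse log2 fold changes ran from -0.50 to -0.27 with a median of -0.36, and the human ones from -1.19 to -0.56 with a median of -0.82. Mcm6 had 801.3, 788.6 and 824.9 CPM in WT and 629, 700.7 and 651.5 in cKO, a fall to 82% (-0.29 ± 0.047; adjusted p = 0.00314). Human MCM6 had 158.6, 163.4 and 167.1 CPM in shNC and 72, 69.8 and 72.4 in shDDX21. It fell to 43.8% of control (-1.19 ± 0.034; adjusted p = 9.55e-43), the largest change of the 6 human subunits. Mcm3 and Mcm4 fell to 82.1% and 82.7% in the mouse and to 55.1% and 54.0% in the human cells. Mcm4 had 551.8, 554.3 and 553.9 CPM in WT and 447.8, 472.9 and 452.7 in cKO, and human MCM4 269.8, 267.4 and 273.8 in shNC and 144, 142.4 and 151.5 in shDDX21. Mouse Mcm3 had 789.2, 779.8 and 776.9 CPM in WT and 661.3, 634.7 and 629.5 in cKO. The human MCM3 libraries were at 227.5, 224.1 and 231.4 CPM in shNC and 124.5, 127.6 and 124.3 in shDDX21, again without overlap. Mcm2 was the subunit with the widest mouse spread (683.7, 678.5 and 535.6 CPM in WT against 535.4, 364.8 and 440.5 in cKO), where the lowest WT and highest cKO library nearly met. Its change of -0.50 ± 0.15 (adjusted p = 0.0347) was -0.48 with a GC offset and -0.32 with the GC slope as a covariate, and it lost the call without any one of WT 1, WT 2, cKO 2 or cKO 3 (adjusted p 0.0551 to 0.112).

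Among the factors that turn the ring into a helicase, MCM10, which binds the activated helicase, had 244.3, 238.8 and 253.2 CPM in WT and 166.7, 181.1 and 175.3 in cKO. It fell to 71.1% in the mouse (-0.49 ± 0.044; adjusted p = 1.67e-04) and to 50.1% in the human cells. All 4 GINS subunits fell, with median log2 fold changes of -0.51 in the mouse and -0.79 in the human cells. Human GINS2 fell most of all human licensing genes, from 26.8, 25.5 and 26.6 CPM in shNC to 9.8, 10.1 and 8.77 in shDDX21, or 36.3% of control (-1.46 ± 0.083; adjusted p = 1.39e-25). Mouse Gins2 was at 66.4%, but 67.3% of its exon bases lie opposite Gse1, and whether counting used strand is not given, so that its value is uncertain. CDC45, the third part of the active helicase, was at 73.6% in the mouse and 62.5% in the human cells.

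Of the origin recognition complex, the 2 members of the set, ORC1 and ORC6, fell in both species. Orc6 had 125.4, 122.7 and 125.4 CPM in WT and 101.3, 103.1 and 108.8 in cKO, and it had the smallest mouse change of the group, at 83.9% (-0.25 ± 0.041; adjusted p = 0.00293). Orc1, the subunit that varies most over the cell cycle, was at 73.3% in the mouse and 59.1% in the human cells. The other 4 subunits, which are not in the set and were picked out after their values were seen, were nearer to control. Orc2, Orc3, Orc4 and Orc5 had mouse log2 fold changes of -0.06, 0.00, 0.08 and 0.12 and none passed the test. In the human cells ORC2 fell slightly (-0.15 ± 0.046; adjusted p = 0.00424), and ORC3, ORC4 and ORC5 at -0.07, -0.02 and -0.19 did not pass. Whether the 2 sets of subunits differ from each other was not tested.

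**Figure D2:**
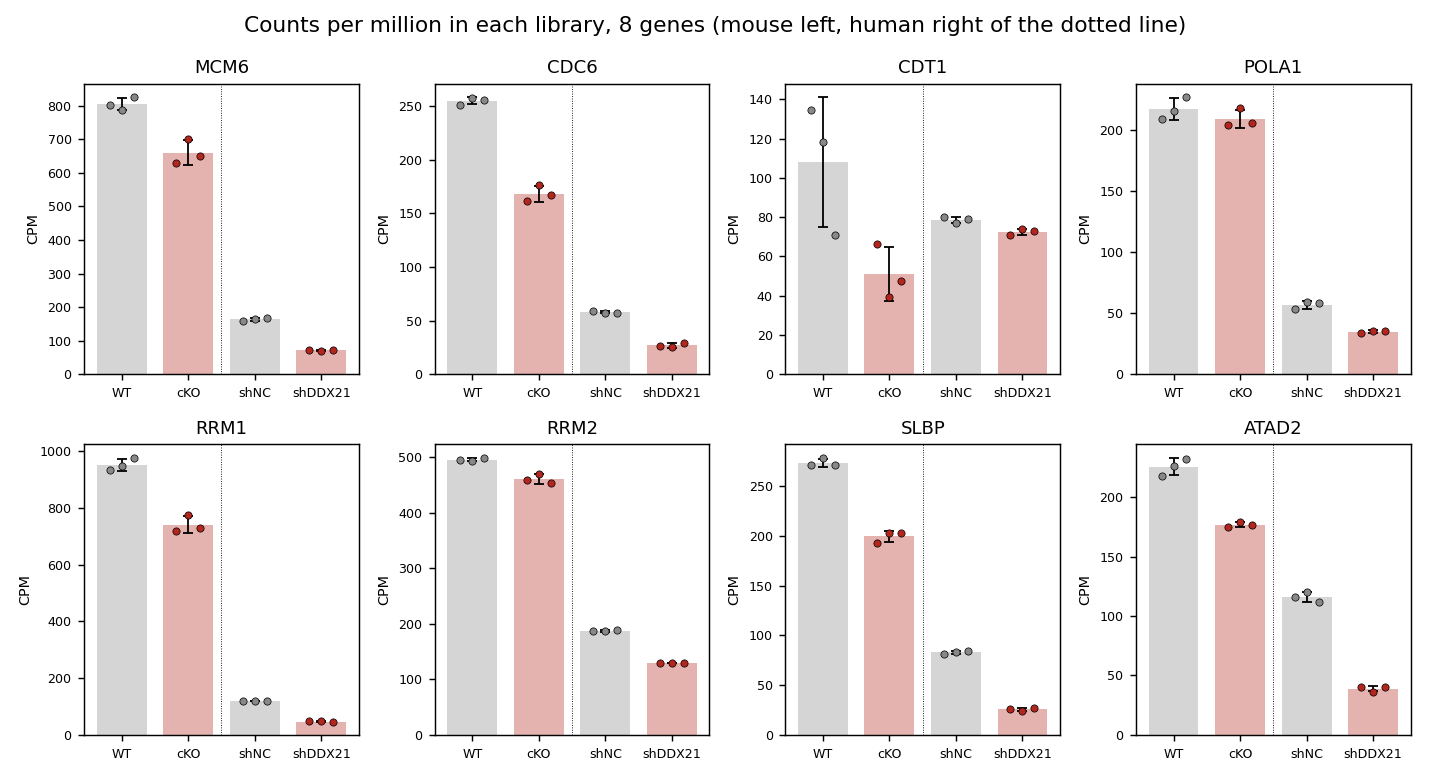
Bars are group means of CPM with SD over 3 libraries and points are the libraries, for 8 of the genes, with mouse groups left and human groups right of the dotted line (each panel has its own axis from 0). SLBP, ATAD2, RRM1 and MCM6 fell to between 31.1% and 43.8% of control in the human cells and to between 73.0% and 82.0% in the mouse, mouse POLA1 overlapped between groups, and CDT1 fell further in the mouse.

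Of the 19 genes of DNA synthesis, 17 fell in the mouse and 18 in the human cells, with medians of -0.27 and -0.56, the smallest of the 4 role groups in each species. The polymerase α complex starts each new strand. Its catalytic subunit Pola1 had 209.2, 215.6 and 226.6 CPM in WT and 203.7, 217.8 and 205.7 in cKO, with overlapping groups (-0.05 ± 0.045; adjusted p = 0.378), and it was called lower only with the GC slope as a covariate (-0.10, adjusted p = 0.00556). Human POLA1 had 53.1, 59.3 and 57.9 CPM in shNC and 33.5, 35.2 and 35.6 in shDDX21, a fall to 61.3% (-0.70 ± 0.052; adjusted p = 7.04e-20). The partner subunit Pola2 did fall in the mouse, from 171.4, 169 and 171.1 CPM to 132.5, 120 and 125.7 (-0.44 ± 0.044; adjusted p = 3.16e-04), and human POLA2 was at 68.7%. The primase subunits PRIM1 and PRIM2 were at 89.3% and 82.6% in the mouse and 73.3% and 64.1% in the human cells. Mouse PRIM1 (adjusted p = 0.0445) lost its call without any one library except cKO 2 (adjusted p 0.0789 to 0.15). It also lost it with upper-quartile or total-count scaling (adjusted p = 0.174 and 0.267) and in DESeq2 (adjusted p = 0.105).

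The leading-strand polymerase POLE had 162.1, 157.5 and 161.3 CPM in shNC and 99.6, 95.1 and 100.6 in shDDX21, or 61.4% (-0.70 ± 0.032; adjusted p = 1.06e-30). Mouse Pole was much nearer to control, at 210.8, 209.7 and 217 CPM in WT and 183.3, 196.5 and 188.7 in cKO (-0.17 ± 0.039; adjusted p = 0.0149). Its mouse call was lost without cKO 1 or cKO 3 (adjusted p = 0.0552 and 0.0639), with upper-quartile or total-count scaling, and in DESeq2 (adjusted p = 0.063). Pold3, an accessory subunit of the lagging-strand polymerase δ, fell from 214.1, 208.9 and 219.6 CPM to 153.7, 169.3 and 160.9 in the mouse (-0.41 ± 0.046; adjusted p = 5.06e-04). Pold1, the catalytic subunit of the same polymerase, had 169.9, 147.9 and 80.9 CPM in WT and 87.3, 36.1 and 51.5 in cKO, and the groups overlapped. Its change of -1.19 ± 0.37 (adjusted p = 0.0396) was -0.78 with a GC offset and -0.73 with the GC slope as a covariate. Without WT 1, WT 2, cKO 2 or cKO 3 in turn Pold1 did not pass (adjusted p 0.072 to 0.132). Human POLD1 was at 65.8% (-0.60 ± 0.036).

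The clamp PCNA fell to 63.8% in the mouse (731.2, 718.9 and 604.6 CPM in WT, 509.2, 373.8 and 427.7 in cKO) and to 73.7% in the human cells. The 5 subunits of its loader, replication factor C, fell little in the mouse, with log2 fold changes from -0.27 to -0.15, and further in the human cells, from -1.06 to -0.35. RFC1, the large subunit, had 106.1, 92.9 and 98.6 CPM in shNC and 48.9, 50.2 and 43.8 in shDDX21, or 48% (-1.06 ± 0.045; adjusted p = 9.80e-33), the largest human change among synthesis genes. Mouse Rfc1 had 242.3, 242.9 and 256.2 CPM in WT and 206.7, 229.2 and 214.7 in cKO (-0.19 ± 0.048; adjusted p = 0.0204). Of the mouse RFC subunits only RFC3 kept its call each time 1 library was left out, and with upper-quartile or total-count scaling RFC1, RFC2, RFC4 and RFC5 did not pass.

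Fen1, the nuclease that trims Okazaki fragments, had the lowest level of the mouse members. It had 23.8, 16.6 and 5.29 CPM in WT and 7.71, 1.99 and 3.17 in cKO, and the groups overlapped. Its fold change was the largest of all mouse members, with the largest SE (-1.83 ± 0.63; adjusted p = 0.0563). Left-out libraries moved it both ways, to -1.35 without WT 1 (adjusted p = 0.18) and -1.46 without cKO 2 (adjusted p = 0.117), and to -2.25 without WT 3 (adjusted p = 0.0119) and -2.55 without cKO 1 (adjusted p = 0.0169). It passed with RLE, upper-quartile or total-count scaling and without a filter (adjusted p 0.014 to 0.0473). The change was -1.75 with a GC offset (adjusted p = 0.0268) and -1.03 with the GC slope as a covariate (adjusted p = 1.26e-06), and 78.8% of its exon bases lie opposite the gene Gm10143. Human FEN1 had 84.2, 83.8 and 83.2 CPM in shNC and 45.2, 41.6 and 50.6 in shDDX21, a fall to 54.7% (-0.87 ± 0.046; adjusted p = 3.26e-27). Lig1, the ligase that joins the fragments, had 395.3, 396.4 and 371.3 CPM in WT and 286.9, 267.9 and 272.9 in cKO, the smallest p of the mouse synthesis genes (-0.49 ± 0.043; adjusted p = 1.60e-04), and human LIG1 was at 76.4%. The single-strand binding proteins RPA1, RPA2 and RPA3 were at 87.9%, 68.9% and 79.2% in the mouse and 85.0%, 83.3% and 90.8% in the human cells. Human RPA3 had 12.3, 14.9 and 11.1 CPM in shNC and 12, 11.4 and 11.4 in shDDX21, and the groups overlapped (-0.13 ± 0.099; adjusted p = 0.284).

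Of the 6 genes of nucleotide supply and uracil removal, 5 fell in the mouse (median -0.36) and all 6 in the human cells (median -0.83). The 2 subunits of ribonucleotide reductase, the enzyme that makes deoxynucleotides, differed in size of change. Rrm1 had 932.8, 949.2 and 975.9 CPM in WT and 720.8, 775.4 and 729.1 in cKO, or 77.9% (-0.36 ± 0.041; adjusted p = 5.29e-04). Human RRM1 had 117.7, 118.1 and 118.4 CPM in shNC and 47.2, 47.4 and 46.5 in shDDX21. At 39.8% of control it had the largest human change of the group (-1.33 ± 0.039; adjusted p = 4.12e-42). Rrm2 had 495.6, 492.8 and 498.1 CPM in WT and 458.8, 470 and 453 in cKO, which is 93.0% (-0.11 ± 0.032; adjusted p = 0.0365), the smallest mouse change that passed. It lost that call each time 1 library was left out, with adjusted p from 0.0634 to 0.146, and also in DESeq2 (adjusted p = 0.182). Human RRM2 was at 69.1% (186.6, 186.5 and 188.4 against 129.3, 129.5 and 129.4 CPM).

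Thymidine kinase (TK1), which salvages thymidine, had the largest mouse change of this group, from 127.2, 122.3 and 121.9 CPM to 89.2, 64.4 and 87.9 (-0.62 ± 0.12; adjusted p = 0.00581). The human TK1 libraries were at 46.3, 44.3 and 45.6 CPM in shNC and 22.1, 19.5 and 21 in shDDX21 (46% of control). Dut, which destroys dUTP, had 168.8, 169.5 and 188 CPM in WT and 131.9, 138.3 and 130.2 in cKO (76.1%), and human DUT fell from 99.8, 102.2 and 105.3 to 48, 47.4 and 46.1 CPM (46%). Thymidylate synthase (TYMS), which makes dTMP, had 122.8, 117.6 and 108.9 CPM in WT and 93.2, 91.7 and 88.6 in cKO (-0.35 ± 0.054; adjusted p = 0.00211). Human TYMS had the smallest human change of the group, 67, 68.9 and 67.5 against 46.5, 52.1 and 52.4 CPM (-0.43 ± 0.046), and 39.9% of its exon bases lie opposite ENOSF1. Ung, the glycosylase that removes uracil from DNA, had 69.1, 67.1 and 56.2 CPM in WT and 62.2, 43.4 and 54.2 in cKO and overlapped (-0.27 ± 0.14; adjusted p = 0.165), while human UNG was at 69.6% (-0.52 ± 0.048).

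All 10 genes of S phase control and chromatin fell in both species, with medians of -0.44 in the mouse and -0.96 in the human cells. SLBP, which binds the stem-loop of histone messengers, had the largest human change of all 52 genes: 81.2, 83.4 and 84.2 CPM in shNC against 26, 24.3 and 27.1 in shDDX21, or 31.1% (-1.68 ± 0.05; adjusted p = 4.56e-42). In the mouse Slbp had 271.5, 277.9 and 270.6 CPM in WT and 192.7, 202.9 and 202.7 in cKO, or 73.0% (-0.45 ± 0.036; adjusted p = 1.00e-04). ATAD2, a bromodomain ATPase of chromatin, had 116.4, 119.8 and 112 CPM in shNC and 40.3, 36.2 and 40.4 in shDDX21, or 33.6% (-1.57 ± 0.043; adjusted p = 4.75e-44). Mouse Atad2 went from 218.2, 226.6 and 232.3 to 174.9, 179.5 and 176.2 CPM, or 78.4% (-0.35 ± 0.037; adjusted p = 3.93e-04). No library of either gene overlapped the other group.

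UHRF1, which brings the maintenance DNA methyltransferase to new DNA, had the largest mouse change of the control group. Its mouse libraries were at 794.4, 769.2 and 636.1 CPM in WT and 535.7, 386.5 and 453.6 in cKO (-0.68 ± 0.13; adjusted p = 0.00586), and its human libraries at 139.2, 141.9 and 134.1 in shNC and 56.7, 56.5 and 57.2 in shDDX21 (-1.28 ± 0.037; adjusted p = 8.97e-43). Claspin (CLSPN), which links stalled forks to the checkpoint kinase, had the smallest mouse p of the group, with 234.6, 235.6 and 241.1 CPM in WT and 172.5, 176.3 and 169.5 in cKO (-0.46 ± 0.034; adjusted p = 7.30e-05). Human CLSPN had 100.1, 107.1 and 97.9 CPM in shNC and 42.7, 43.7 and 45.4 in shDDX21, or 43.2% (-1.21 ± 0.043; adjusted p = 2.53e-37). Of human CCNE2, which encodes cyclin E2, 37.0% of the exon bases lie opposite INTS8, which had a mean of 940 counts against 103.2 for CCNE2, so that its human values are uncertain. The chromatin assembly factor subunits CHAF1A and CHAF1B, which place histones behind the fork, were at 67.1% and 79.1% in the mouse and 60.3% and 46.7% in the human cells, though 52.5% of the mouse Chaf1a exon bases lie opposite Ubxn6. Human E2F1, the transcription factor, changed least of the human control genes (29.6, 31.1 and 28 against 22.7, 22.4 and 25 CPM; -0.34 ± 0.067; adjusted p = 1.26e-05). Mouse E2f1 was at 67.6%, a log2 fold change of -0.56 that was -0.28 with a GC offset (adjusted p = 0.0419) and -0.46 with the GC slope as a covariate (adjusted p = 2.85e-07). Casp8ap2, which takes part in histone gene expression, had 160.8, 166 and 171.4 CPM in WT and 139.4, 156.7 and 138.4 in cKO, the smallest mouse change of the group (-0.20 ± 0.057; adjusted p = 0.0323), and it lost the call without any one library except cKO 2 (adjusted p 0.056 to 0.12). Human CASP8AP2 (-0.35 ± 0.13; adjusted p = 0.02) lost it in DESeq2, with upper-quartile scaling, and without shNC 3, shDDX21 2 or shDDX21 3 (adjusted p 0.0558 to 0.138).

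The human changes were larger than the mouse ones for most members. A joint fit of all 12 libraries tested the difference of the 2 log2 fold changes, and 33 members had a mouse value above the human one, 2 had it below and 17 did not pass. Over the 10313 matched genes 56.2% were called, 35.8% above and 20.4% below. The members called above were 11 of 17 in licensing, 11 of 19 in synthesis, 4 of 6 in nucleotide supply and 7 of 10 in control. Among the members called above, the differences were widest for SLBP (1.23 ± 0.056, SE; adjusted p = 1.02e-08), ATAD2 (1.22 ± 0.064; adjusted p = 2.76e-08) and RRM1 (0.97 ± 0.046; adjusted p = 1.29e-08). In licensing the smallest p-values were those of MCM6 (0.91 ± 0.057), MCM3 (0.57 ± 0.039) and MCM4 (0.62 ± 0.044), and in synthesis those of POLE (0.54 ± 0.049), RFC1 (0.87 ± 0.086) and POLA1 (0.65 ± 0.07). DUT (0.72 ± 0.066), RRM2 (0.43 ± 0.034) and CLSPN (0.75 ± 0.055) followed in the other groups. The 2 members that fell further in the mouse were CDT1 (-0.96 ± 0.3; adjusted p = 0.0166), at -0.61 with the GC slope as a covariate, and RPA2 (-0.27 ± 0.078; adjusted p = 0.0106). ORC6 differed by -0.03 ± 0.058 and GINS1 by 0.05 ± 0.097, neither past the threshold. The species, the cell source, the method of depletion and its duration changed together and cannot be told apart. The spread between libraries also differed, with a biological coefficient of variation of 10.5% in the mouse and 2.23% in the human libraries. The joint fit assumed the same spread for a gene in both species, so its SE and p-values do not allow for this difference.

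**Figure D3:**
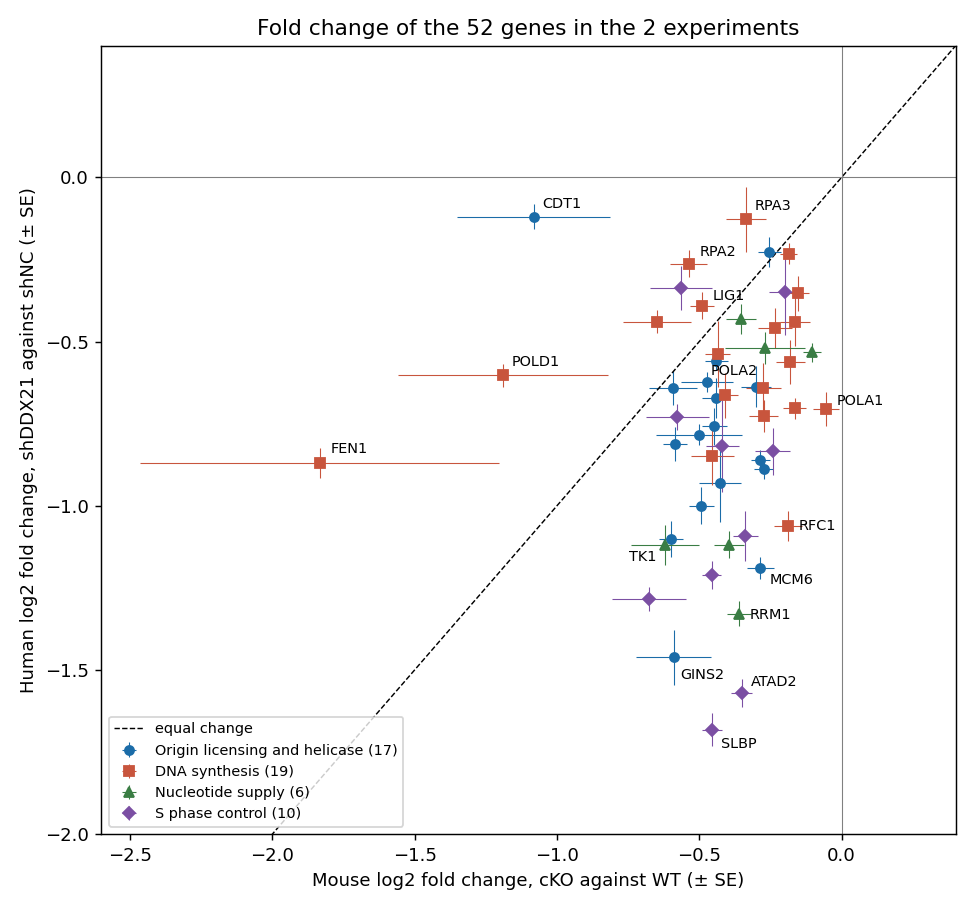
Each point is 1 of the 52 genes, with the mouse log2 fold change on the x axis, the human one on the y axis, SE as error bars, role by colour and shape, and the dashed line marking equal change. Most points lie below the line (larger human falls, SLBP and ATAD2 farthest down), and CDT1, POLD1 and FEN1 lie to its left with wide mouse errors.

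The order of the members by size of change was not shared between species. Across the 52 genes the mouse and human log2 fold changes gave r = 0.0718 (Pearson) and rho = 0.218 (Spearman), given as a description, since all genes share the same libraries and the mouse range is set largely by FEN1, POLD1 and CDT1. Levels per length were more alike. In CPM per kilobase of exon (RPKM), the log2 control levels of the 52 genes had an r of 0.494 and a rho of 0.473 between species. PCNA was the highest member in both, at 285.4 RPKM in WT and 85.8 in shNC. Mcm3, Mcm5 and Rrm2 followed in the mouse at 208.4, 202.0 and 178.8 RPKM, and MCM7, MCM3 and SLBP in the human cells at 66.9, 62.5 and 44. The lowest were Fen1 (6.29 RPKM), Gins3 (9.93) and Ung (11.7) in the mouse, and CASP8AP2 (0.89), POLA2 (1.06) and CCNE2 (1.70) in the human cells. These ranks depend on the deposited exon length. Human POLA2, at 12.7 CPM over 12006 bases, ranked below GINS3, at 10.7 CPM over 5108. Lengths also differed between species, as for RRM2 (2771 bases in the mouse, 9153 in the human data). The median member was at 33.7 RPKM in WT and 24.9 in cKO, and at 14.3 RPKM in shNC and 8.68 in shDDX21. Size of change did not follow level: across members the log2 fold change and log2 control RPKM had a rho of -0.0392 in the mouse and -0.105 in the human cells.

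The mouse libraries differed in how counts depended on GC content. A gene's deviation was taken from its mean over all mouse libraries of both groups. The slope of this deviation on GC content, per 10 percentage points, was 0.16, 0.12 and -0.092 on the log2 scale in WT libraries 1 to 3 and 0.11, -0.24 and -0.061 in cKO libraries 1 to 3. GC content was that of the longest transcript of each gene. Among 9680 genes with a mean over 5 CPM, the 968 richest in GC (at least 57%) had a median log2 fold change of -0.35, and the 968 poorest 0.016. Members ranged from 34.2% (RPA3) to 61.0% (POLD1) with a median of 48.6%. In 15 members, among them CDT1, POLD1, FEN1, PCNA and UHRF1, WT 3 was the lowest WT library and cKO 2 the lowest cKO library. These were not all rich in GC: PCNA, at 45.3%, lay below the member median and was at -0.65 as counted, -0.66 with a GC offset and -0.50 with the GC slope as a covariate. With a GC offset for each library 49 members were called lower and none higher (median -0.38). With the GC slope of the library as a covariate the counts were 51 and 0 (median -0.40), and only UNG did not pass (-0.10, adjusted p = 0.0564). Both alternatives were chosen after seeing the data and were estimated from the same counts that were tested. Any GC difference between WT and cKO is partly held in them, so they overlap with the group. Their p-values treat the estimated GC terms as known.

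**Figure D4:**
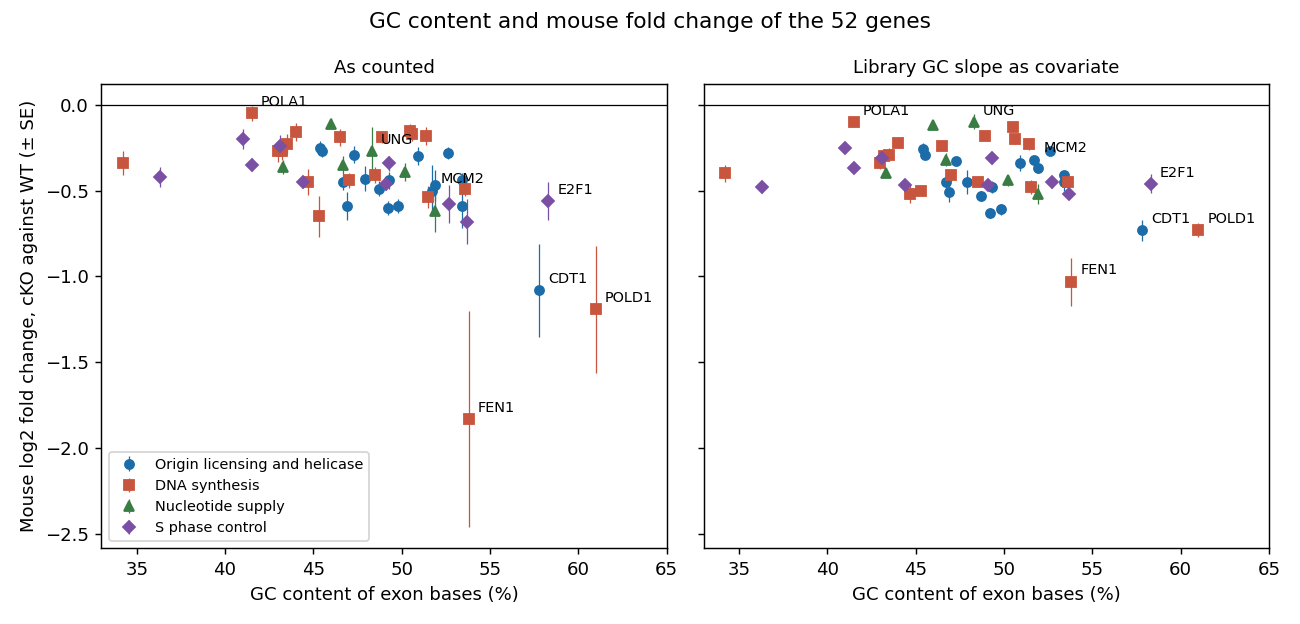
Mouse log2 fold change with SE (y axis) against the GC content in percent of the exon bases of each gene's longest transcript (x axis). The 52 genes are shown as counted (left) and with each library's GC slope as a covariate (right). POLD1, CDT1 and FEN1 move from -1.19, -1.08 and -1.83 to -0.73, -0.73 and -1.03, and the other members lie between -0.63 and -0.10 in the right panel.

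Other genes of the same pathways, from a list that does not contain the 52, moved less uniformly. Of 46 further replication genes tested in the mouse, 29 fell, none rose and 17 did not pass (median -0.31). Of 45 tested in the human cells 33 fell and 3 rose (median -0.56). The 3 that rose were POLD4, a small subunit of polymerase δ (0.47 ± 0.092; adjusted p = 1.02e-05), E2F3 (0.37 ± 0.033; adjusted p = 7.62e-16) and RNASEH2C, a subunit of ribonuclease H (0.15 ± 0.059; adjusted p = 0.0261). WDHD1, which couples polymerase α to the helicase, had the lowest human value of that list, from 67.4 ± 0.917 to 22.9 ± 2.7 CPM (-1.57 ± 0.057). Of 22 further genes of nucleotide synthesis, 8 fell and 3 rose in the mouse (median -0.13) and 17 fell and 2 rose in the human cells (median -0.32). RRM2B, the alternative small subunit of ribonucleotide reductase that p53 induces, rose in both species, unlike RRM2. Its mouse level went from 15.7 ± 1.68 to 23.3 ± 3.8 CPM (0.57 ± 0.14; adjusted p = 0.0159) and its human level from 172.4 ± 2.53 to 206.9 ± 1.51 CPM (0.26 ± 0.028; adjusted p = 4.08e-13). WDHD1 and RRM2B were picked out after their values were seen.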

How the data were processed

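Poly(A) RNA of 12 libraries, 3 in each of 4 groups, was sequenced by the authors. STAR, featureCounts and DESeq2 and the builds mm10 and hg38 are named in the submitters' processing notes, without versions. The strand setting and the handling of reads that map to more than 1 gene are not given in the sources used here. Tests used the deposited raw counts, whole numbers per gene. The deposited normalized tables hold a signal (the count divided by 1 constant per library) and its log2 over the authors' control mean, and served for gene symbols only. Every column of per-sample values was mapped to a sample by its title.

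Counts were filtered (filterByExpr), scaled (TMM) and tested with edgeR 4.0.16 in R 4.3.3 (glmQLFit, glmQLFTest, two-sided), each experiment apart, without covariates, with p adjusted by Benjamini and Hochberg over all tested genes and a threshold of 0.05. SE was computed as |log2 fold change| divided by sqrt(F), SD is over 3 libraries, and RPKM is CPM over the deposited exon length in kilobases. The difference of species was an interaction over 12 libraries, with genes matched by symbol. DESeq2 1.42.0, other scalings and filters, a replicate block, leaving out each library and 2 GC corrections were alternatives. The scripts were tested on simulated counts. Groups of 3 allow no exact permutation p below 0.1 for 1 gene, so genes rest on the model across genes.

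Values per library were printed, in each role group and experiment, for the 3 members with the smallest p, the largest and smallest changes, all members not called and the 3 smallest interaction p-values. Mouse Mcm2, Pcna and Pold1 and human CDC6 were added after their values were seen. The members and lists were chosen with earlier results of these data known. Overlaps of exons on either strand were computed from the deposited coordinates, and promoter sequences are from RefSeq. On the same strand, human FEN1 shares 2.2% of its exon bases with FADS2 (mean counts 26787 for FADS2, 1137.2 for FEN1). Human PRIM1 likewise shares 4.2% with NACA (5825.2 against 394.5 counts). Mouse Rfc4 lies opposite Eif4a2 over 12.7% (10460.2 counts against 2013.2). The part of these overlaps in the values was not tested.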

Additional observations from a re-analysis of the deposited data

Results flagged for a closer look

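The following results are set apart because the log2 fold changes of the mouse and human experiments differed by edgeR's interaction test (35 of 52 members; 56.2% of all matched genes differed). Values are mouse minus human, so a positive value means a smaller fall in the mouse. Among licensing and helicase genes the differences were MCM6 0.91, GINS2 0.87, MCM4 0.62, MCM3 0.57, MCM10 0.50, CDC6 0.50, GINS3 0.50, GINS4 0.34, ORC1 0.31, CDC45 0.23 and GMNN 0.23. Among synthesis genes they were RFC1 0.87, POLA1 0.65, POLE 0.54, RFC3 0.45, POLE2 0.39, RFC5 0.38, PRIM2 0.37, PRIM1 0.28, POLD3 0.26, RFC4 0.23 and RFC2 0.20. The nucleotide genes differed by RRM1 0.97, DUT 0.72, TK1 0.50 and RRM2 0.43, and the control genes by SLBP 1.23, ATAD2 1.22, CHAF1B 0.76, CLSPN 0.75, UHRF1 0.61, WDR76 0.59 and CCNE2 0.40 (uncertain, since 37.0% of the human CCNE2 exon bases lie opposite INTS8). Only CDT1 (-0.96) and RPA2 (-0.27) fell further in the mouse by this test. Species, cell source and method of depletion cannot be told apart in these differences.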

How the results depend on the processing

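No member was called higher under any alternative run. The mouse count of members called lower was 37 to 46 when 1 library was left out (37 without cKO 3) and 40 to 51 otherwise, and the human count 50 to 51 and 49 to 51. The median member was -0.39 in the mouse with upper-quartile factors, -0.35 with total counts and -0.38 with a GC offset, and -0.43 to -0.38 without 1 library. In the human cells it was -0.63 with upper-quartile factors, -0.73 with total counts, -0.71 without a filter and -0.69 with a minimum of 10 counts per library, and -0.72 to -0.70 without 1 library. All mouse genes called lower numbered 2360, 1368 to 2708 without 1 library (1498 without WT 1, 1480 without WT 2, 1368 without cKO 3) and 3778 with the GC slope as a covariate. The members that fell further in the mouse numbered 2 to 5 without 1 library (4 without WT 3, 5 without cKO 1). Members that changed sign had small values: POLA1 in the mouse (0.011 with total counts), and in the difference of species ORC6 (0.068 with total counts, 0.0059 without cKO 1, 0.007 without shDDX21 3, and -0.058 to 0.007 without 1 library), GINS1 (-0.024 without WT 3, -0.024 to 0.1 without 1 library) and E2F1 (0.062 with a GC offset). In the mouse 13 members lost the call under at least 1 alternative, and in the human cells CASP8AP2 and CDT1 did.

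With the replicate number as a block, 48 mouse members (without PRIM1 and RRM2, with FEN1) and 51 human members were called lower. The numbers did not pair the libraries: deviations of same-numbered mouse libraries correlated at 0.757, -0.575 and 0.0978, and human ones at -0.0286, 0.00552 and -0.0154. Differently numbered mouse libraries ranged from -0.839 (WT 3 with cKO 1) to 0.802 (WT 3 with cKO 2). A block by replicate number does not take up this shared structure. The lowest count of a member was 49, for mouse Fen1, whose libraries had 49 to 531 counts and coefficients of variation of 61.3% in WT and 70.4% in cKO.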

Other observations

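Genes of mitosis, which follow S phase, were lower too. Of 50 tested in the mouse 43 fell, 2 rose and 5 did not pass (median log2 fold change -0.44), and of 51 tested in the human cells 49 fell and 1 rose (median -0.70). The proliferation marker MKI67 went from 1714 ± 46.6 to 1124 ± 59.9 CPM in the mouse (-0.61 ± 0.048, SE; adjusted p = 8.97e-05 in edgeR's quasi-likelihood test) and from 366.6 ± 4.32 to 193.5 ± 3.26 in the human cells (-0.92 ± 0.025; adjusted p = 7.15e-44). TOP2A, the topoisomerase that untangles chromosomes, fell by 0.49 on the log2 scale in the mouse and by 1.34 in the human cells. PSRC1, a spindle protein gene, rose in both species, from 17.9 ± 3.31 to 165.8 ± 30.2 CPM in the mouse (3.21 ± 0.18; adjusted p = 1.77e-05) and from 21.1 ± 0.789 to 35.7 ± 1.09 in the human cells (0.76 ± 0.064; adjusted p = 5.31e-17). Gtse1, which encodes a microtubule and p53 binding protein, rose in the mouse from 48.8 ± 9.64 to 146 ± 32.9 CPM (1.58 ± 0.2; adjusted p = 8.21e-04), and in the human cells GTSE1 fell from 41 ± 2.54 to 15.8 ± 1.28 CPM (-1.37 ± 0.069; adjusted p = 1.09e-28). These genes were picked out after their values were seen.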
